A study of Mus musculus with 6 samples.

Results

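The 49 genes described here encode chemokines and their receptors. They were measured by RNA sequencing of cells taken from mouse tumors by CD31, a selection meant to enrich endothelial cells. They are the gene entries whose symbols begin with Ccl, Cxcl, Cx3cl, Xcl, Ccr, Cxcr or Cx3cr followed by a number, less Cxcl1, Cxcl2, Cxcl3, Cxcl5, Cxcr2, Cxcr4 and Ccr2, which were set aside by the rule that chose the list. The rule used names, not values. Of the 49 genes, 34 encode ligands and 15 encode receptors, out of 23473 RefSeq genes in the expression table. The ligands comprise 24 CC chemokines, 8 CXC chemokines, the CX3C chemokine Cx3cl1 and the XC chemokine Xcl1.

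The study compared 3 libraries from control mice (Ctrl) with 3 libraries from mice with endothelial Notch activation (NICeCA). Both groups were C57BL/6 mice listed as 8 weeks old, and the methods call the mice male. All carried subcutaneous Lewis lung carcinoma (LLC), a mouse lung tumor line. Ctrl mice are labelled wild type. NICeCA mice carried a Cdh5 cre ERT2 driver, a tamoxifen-dependent recombinase under an endothelial cadherin promoter, together with a Rosa26 flox-stop-flox cassette encoding Notch1 ICD, the intracellular domain that signals without ligand. Recombination was induced with 100 mg/kg tamoxifen daily for 5 days, and the sources used here do not say whether Ctrl mice received it. Cells were pulled out with CD31-coated beads. CD31 also occurs on platelets and on several leukocytes, and the share of cells with a recombined cassette was not analysed here. The methods place collection of these cells on day 14 after inoculation, whereas the labels speak of different days of dissection without giving the day of each mouse.

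Chemokines are small secreted proteins that steer migrating cells. They are held on the vessel wall by sugar chains such as heparan sulfate, and there they act on G protein-coupled receptors of passing leukocytes. Endothelial cells make some of them and macrophages, neutrophils and lymphocytes make others, while most of the classical receptors sit on leukocytes. Inflammatory chemokine genes are induced by cytokines such as tumor necrosis factor and interleukin-1, and homeostatic ones such as Cxcl12 are made by stromal cells without such a stimulus.

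Values are RPKM, the reads on a gene scaled to its length and to the depth of the library, so levels of different genes can be set side by side. Reads assigned to RefSeq genes numbered 27793301 to 30769916 per library. Tests were run with limma on log2(RPKM + 1) over the 12320 RefSeq genes that averaged 1 RPKM or more. A gene was called at a Benjamini-Hochberg adjusted p under 0.05 across all of them. Fold changes on this scale are NICeCA minus Ctrl and understate the change of low genes. Over all tested genes 725 were called higher and 946 lower in NICeCA, a split that became 981 and 711 with trimmed mean scaling and 434 and 319 with quantile normalization. In the check of the groups, Hey1, a Notch target, was higher in NICeCA (log2 fold change 1.10, adjusted p = 0.041). Nrarp, another target (1.05, adjusted p = 0.052), and Notch1 itself (0.11, adjusted p = 0.71) were not called. The 15 endothelial markers given below were also above 0, with a median of 0.66. Within Ctrl, Hey1 was highest in replicate 1 (5.55, 2.69 and 2.78 RPKM), as was the endothelial sum (679, 266 and 350 RPKM). Whether Hey1 rose beyond the endothelial RNA was not tested. The endothelial markers Pecam1 (47.5 to 135 RPKM in Ctrl and 125 to 154 in NICeCA) and Cdh5 (30.9 to 82.4 and 59.2 to 96.5) were present in every library. Macrophage markers were present as well, as given below, in cells the labels describe as more than 90% pure. The macrophage list summed to 5621 to 10227 RPKM per library and the endothelial list to 266 to 755 RPKM. Such sums over different genes do not give shares of cells, and which cells made the chemokine RNA was not tested.

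In NICeCA 6 CC ligands rose, and 1 receptor moved each way. Ccl2, Ccl3, Ccl4, Ccl6, Ccl7 and Ccl9 rose, as did Ccr1, the shared receptor of several of these ligands, and Cx3cr1, the fractalkine receptor, fell. Mean levels of the 7 genes that rose were 2.69 to 5.52 times higher in NICeCA than in Ctrl, and the mean of Cx3cr1 was 3.56 times higher in Ctrl. These 8 were called among the 35 genes of the list that averaged 1 RPKM or more. The 7 called higher are 20% of the 35, where 5.88% of all tested genes were called higher, and the 1 called lower stands beside a background of 7.68%. Calls in either direction made up 22.9% of the 35 genes and 13.6% of all tested genes.

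The log2 fold change was above 0 in 24 of the 35 genes (68.6%), with a median of 0.41, where 44.7% of all tested genes were above 0 and their median was -0.05. The 14 tested CC ligands had a median of 1.47 and 6 calls, all higher. The 6 tested CXC ligands had a median of 0.49 and 0 calls with limma or with voom, and 2 of the 6 had an unadjusted p under 0.05. The 13 tested receptors had a median of 0.33, with Ccr1 called higher and Cx3cr1 called lower. In 12 genes (34.3%) every NICeCA library lay above every Ctrl library, which held for 16.5% of all tested genes, and in 3 every NICeCA library lay below, which held for 24.4% of all. In either direction the groups did not overlap in 42.9% of the list and 40.9% of all tested genes, a share near the background. No test was made of the list as a whole.

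The count of calls changed when single libraries were left out. Without NICeCA replicate 2, 0 of the 35 genes were called higher with limma (12 had an unadjusted p under 0.05). Among all 12320 genes 26 were then called higher, against 725 with every library kept. The log2 fold changes of the 7 genes that rose were 1.35 to 2.43 in that fit, against 1.44 to 2.51 in the main fit. Without NICeCA replicate 1, Ccl3 and Ccl4 alone were called higher, beside 91 genes in all. Without Ctrl replicate 3, 11 were called higher, Ccl12, Ccl24 and Cxcl10 being among those added, and Ccr10 joined Cx3cr1 as called lower. Ccr4 was called lower with Cx3cr1 when Ctrl replicate 2 was left out. Cx3cr1 was called in each of the 15 alternatives.

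Marker genes of other cell types moved with the chemokines in part. Of 10 tested neutrophil markers 9 were called higher, and their summed level over the list ran from 203 to 366 RPKM in Ctrl and from 824 to 1965 RPKM in NICeCA. Within NICeCA that sum was highest in replicate 3, the library in which Ccl2, Ccl3 and Ccl7 were highest and Ccl6, Ccl9 and Ccr1 were lowest of the 3, while Ccl4 was highest in replicate 2. Of 12 macrophage markers Cd68, Cd14 and Itgam were called higher and 0 lower, with 6 fold changes on each side of 0. Mrc1 was not called (1.21, adjusted p = 0.105 with limma). These 4 genes were separate with every NICeCA library higher, and 0 of the 12 were separate the other way. The sums overlapped at 7259 to 10227 and 5621 to 9644 RPKM. Lyz2, C1qa, C1qb and C1qc made up most of that sum in every library. Of 13 T and NK markers 2 were called higher, the cytotoxic granule genes Gzmb and Prf1, with sums of 67.9 to 107 and 86.3 to 105 RPKM. The 13 log2 fold changes were above 0 in 7 and below in 6. Cd8a was among the 6, with every NICeCA library lower (-0.68, adjusted p = 0.069 with limma). Endothelial marker sums were 266 to 679 RPKM in Ctrl and 579 to 755 RPKM in NICeCA, with 2 of 15 called higher. All 15 had a log2 fold change above 0, with a median of 0.66, and the Ctrl sum was 679 RPKM in replicate 1 against 266 and 350 RPKM in replicates 2 and 3. The platelet list summed to 114 to 198 RPKM in Ctrl and 1176 to 1309 RPKM in NICeCA, with 2 of 3 tested genes called higher, namely Pf4 and Ppbp, which encode chemokines themselves. The other 6 platelet markers summed to 3.26 to 5.47 RPKM in Ctrl and 3.80 to 6.70 RPKM in NICeCA, overlapping, and of them only Itga2b was tested and was not called (adjusted p = 0.42). Fibroblast markers summed to 339 to 570 RPKM in Ctrl and 164 to 330 RPKM in NICeCA, with 3 of 7 tested called lower. Col3a1 made up most of that sum in every library (270 to 454 RPKM in Ctrl and 103 to 226 RPKM in NICeCA). Of the 7, 5 log2 fold changes were below 0, and those of Col1a1 (0.10) and Col1a2 (0.55) were above it and not called. Lymphatic markers summed to 34.7 to 71.7 and 134 to 166 RPKM with 1 of 3 called higher, and mural markers to 36.4 to 52.8 and 74.9 to 142 RPKM with 3 of 7 called higher. The called lymphatic marker, Pdpn, made up most of its sum in every library (27.2 to 51.3 RPKM in Ctrl and 112 to 143 RPKM in NICeCA). Lyve1 and Flt4 were tested, overlapped between groups and were not called. Prox1, Reln and Mmrn1, under the filter, were separate with every NICeCA library higher. Of 7 dendritic markers 1 was lower, of 3 B cell markers 0 were called with limma and 0 had an unadjusted p under 0.05, and of 2 epithelial markers 1 was lower. No marker of these lists was at 0 in all libraries. The part of these cell types in the chemokine differences was not tested.

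**Figure D1:**
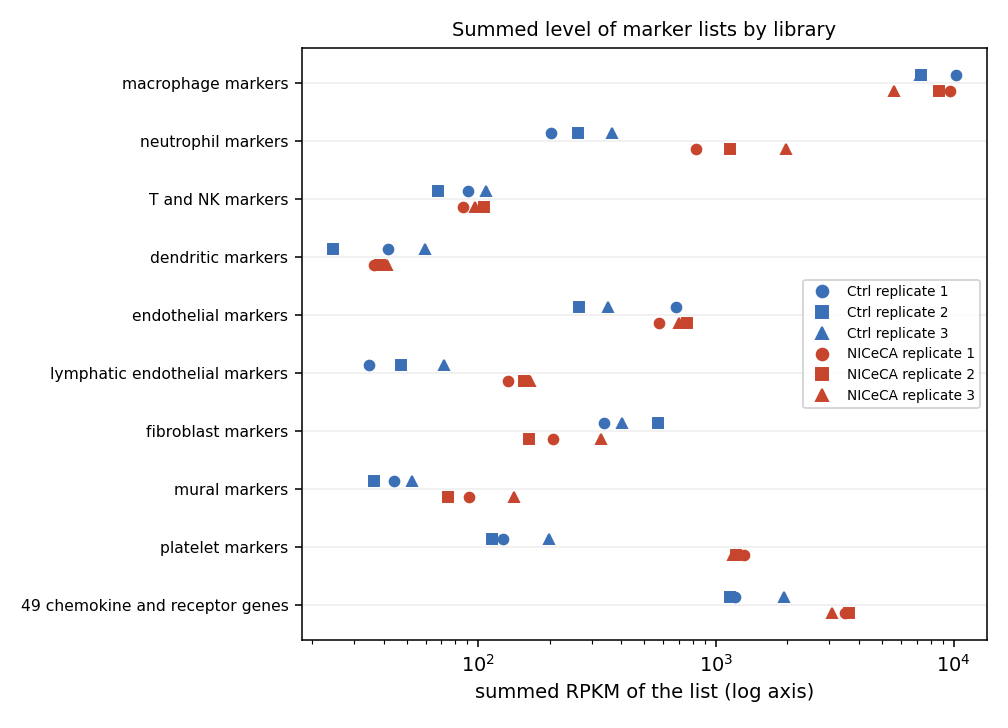
Summed RPKM of 9 cell type marker lists and of the 49 chemokine and receptor genes, on a log axis, with 1 point per library, color for the group and shape for the replicate. Neutrophil, platelet, mural, lymphatic and fibroblast sums and the chemokine sum are separate between Ctrl and NICeCA. The platelet sum is separate through the chemokine genes Pf4 and Ppbp. Most of the lymphatic sum is Pdpn and most of the fibroblast sum is Col3a1. Macrophage, T and NK, dendritic and endothelial sums overlap.

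**Figure D2:**
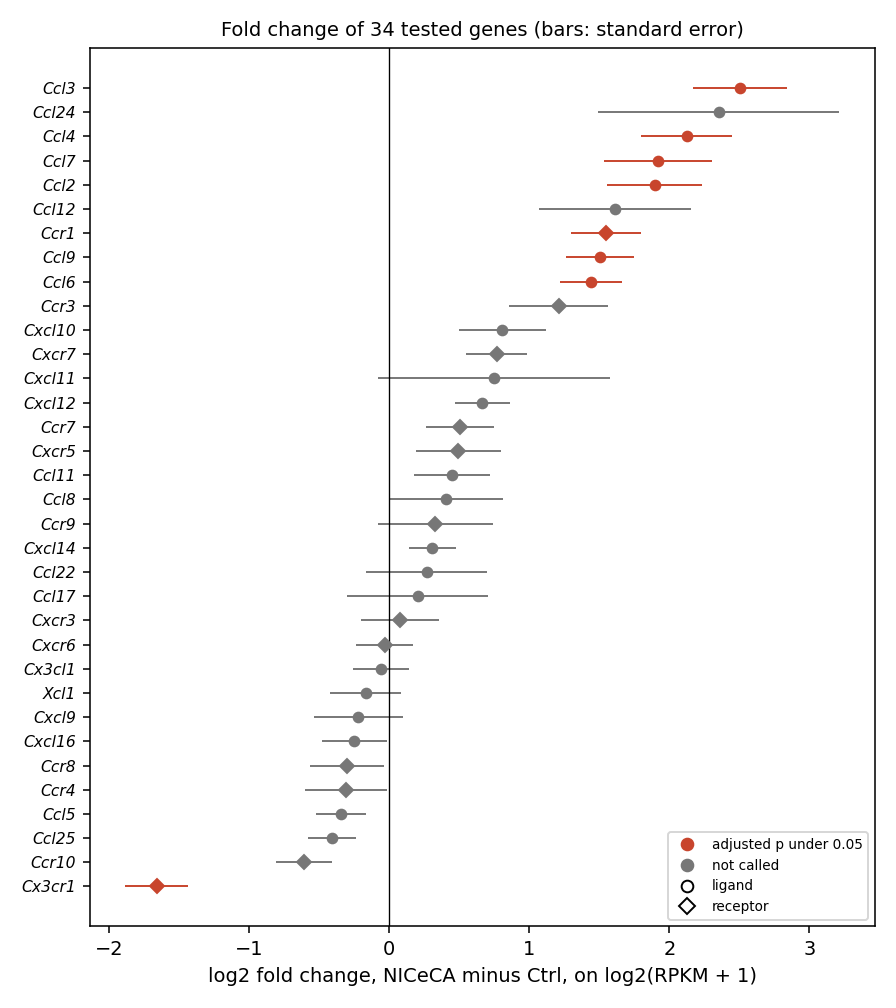
Log2 fold change (NICeCA minus Ctrl, on log2(RPKM + 1)) of 34 chemokine and chemokine receptor genes that averaged 1 RPKM or more, ordered by fold change. Circles are ligands and diamonds receptors, bars give the standard error of the fit over 3 libraries per group, and red marks genes called at an adjusted p under 0.05. Ccl3 stands highest at 2.51 and Cx3cr1 lowest at -1.66.

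The largest change was in Ccl3, which encodes MIP-1 alpha, a ligand of Ccr1 that attracts macrophages and lymphocytes. The 3 Ctrl libraries had 33.2, 32.1 and 72.7 RPKM and the 3 NICeCA libraries 177, 276 and 309 RPKM. The lowest NICeCA library exceeded the highest Ctrl library 2.43 times, and the log2 fold change was 2.51 ± 0.34 (SE, adjusted p = 0.011). Its neighbor Ccl4 encodes MIP-1 beta, an attractant of macrophages and T cells. Ccl4 measured 26.2, 31.4 and 63.3 RPKM in Ctrl and 125, 197 and 186 RPKM in NICeCA, again without overlap. The log2 fold change of Ccl4 was 2.13 ± 0.33 (SE, adjusted p = 0.017). In bulk samples such as these, fewer cells of a type and less RNA per cell cannot be told apart, and the same holds for more cells and more RNA.

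Ccl6 and Ccl9 are rodent CC chemokines made by myeloid cells, and both act on Ccr1. Ccl6 was the most abundant gene of the list, supplying 27.3% to 35.6% of the summed RPKM of the 49 genes in each library. It measured 429, 315 and 528 RPKM in Ctrl and 1226, 1282 and 914 RPKM in NICeCA. Ccl9 measured 124, 86.3 and 163 RPKM in Ctrl and 358, 402 and 279 RPKM in NICeCA. In both genes NICeCA replicate 3 was the lowest of its group and still above every Ctrl library. The log2 fold change was 1.44 ± 0.22 (SE, adjusted p = 0.017) for Ccl6 and 1.50 ± 0.24 (SE, adjusted p = 0.019) for Ccl9. Part of Ccl6 lies under E230016K23Rik on the opposite strand, and the sources used here do not state a strand setting.

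Ccl2 and Ccl7 encode the monocyte chemoattractants MCP-1 and MCP-3. Ccl2 measured 58.1, 130.0 and 153 RPKM in Ctrl and 329, 398 and 465 RPKM in NICeCA. Ccl7 measured 28.7, 70.5 and 96.9 RPKM in Ctrl and 201, 229 and 242 RPKM in NICeCA. In both genes Ctrl replicate 1 was the lowest library and the groups were separate, by 2.16 and 2.08 times between the nearest libraries. The log2 fold change was 1.89 ± 0.34 (SE, adjusted p = 0.022) for Ccl2 and 1.92 ± 0.39 (SE, adjusted p = 0.029) for Ccl7. Both calls were lost with quantile normalization (adjusted p = 0.053 for Ccl2 and 0.059 for Ccl7) and without the filter on low genes (adjusted p = 0.054 and 0.064).

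Ccr1, a receptor of monocytes, macrophages and neutrophils, was the receptor that rose. It measured 39.0, 31.8 and 66.7 RPKM in Ctrl and 133, 137 and 120.1 RPKM in NICeCA. The NICeCA libraries lay close together and all above Ctrl, with a log2 fold change of 1.55 ± 0.25 (SE, adjusted p = 0.019). In all 7 genes that rose, Ctrl replicate 3 was the highest Ctrl library. The highest NICeCA library was replicate 2 in 4 of them and replicate 3 in the other 3.

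Cx3cr1, the fractalkine receptor of resident macrophages and patrolling monocytes, moved the other way. It measured 14.3, 20.4 and 15.6 RPKM in Ctrl and 3.26, 6.48 and 4.38 RPKM in NICeCA. The lowest Ctrl library exceeded the highest NICeCA library 2.21 times, and the log2 fold change was -1.66 ± 0.22 (SE, adjusted p = 0.011). Its ligand Cx3cl1, a membrane-bound chemokine that endothelial cells can make, was not called and its groups overlapped. Cx3cl1 measured 2.75, 4.82 and 4.72 RPKM in Ctrl and 3.38, 3.45 and 4.61 RPKM in NICeCA, and the 95% interval of its log2 fold change ran from -0.52 to 0.40. The ratio of ligand to receptor RPKM was 0.191 to 0.303 in Ctrl and 0.532 to 1.05 in NICeCA. With Cx3cr1 as its divisor, that ratio restates the fall of Cx3cr1 and is not a separate result.

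**Figure D3:**
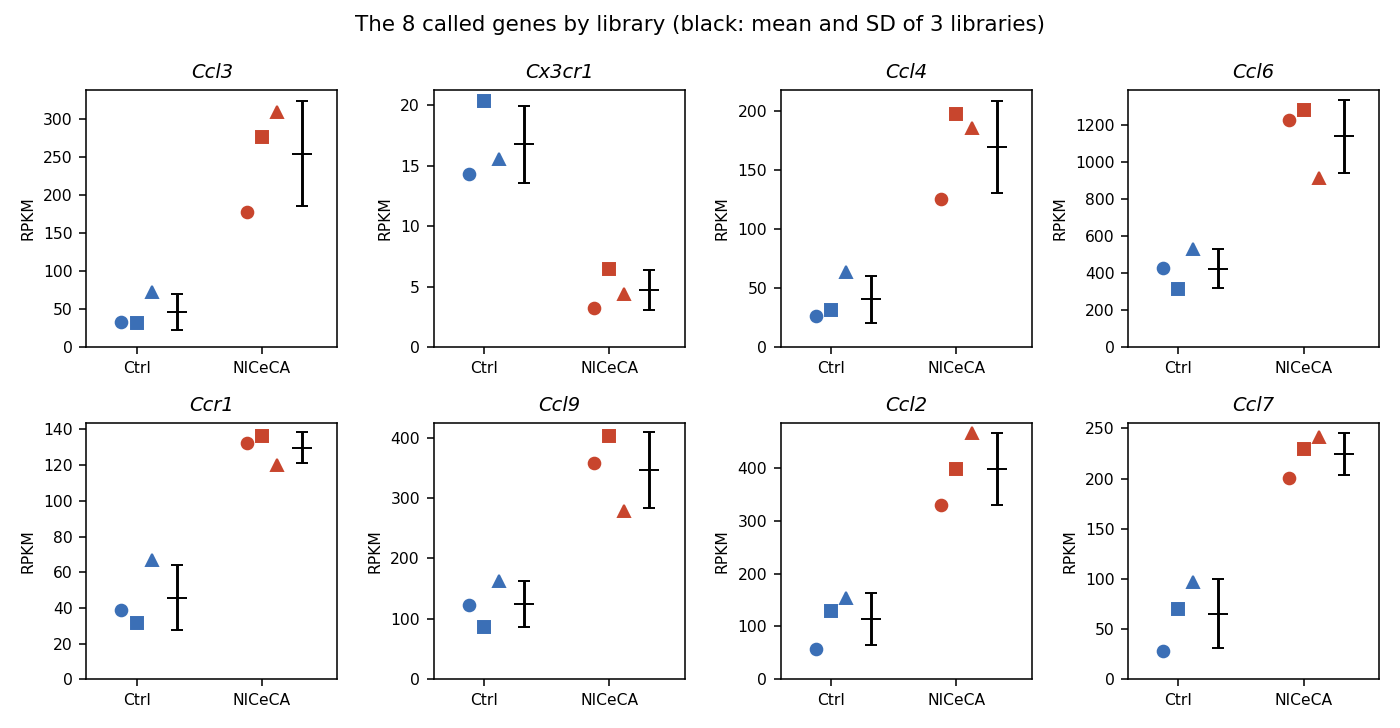
RPKM of the 8 called genes in each of the 6 libraries on linear axes that start at 0, with 1 panel per gene, 1 point per library, a symbol shape for each replicate, and in black the mean and SD of each group. The 3 NICeCA points lie above the 3 Ctrl points in Ccl2, Ccl3, Ccl4, Ccl6, Ccl7, Ccl9 and Ccr1, and below them in Cx3cr1.

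Promoter sequence was read for the called genes because the NICeCA allele acts through RBPJ, the DNA-binding partner of the Notch intracellular domain, and because cytokine induction of chemokine genes runs through NF-kB. RefSeq promoters (GRCm38.p6) were matched for 31 of the 49 genes, including 5 of the 8 called. Ccl2, Ccl4 and Ccl7 had no matched promoter and were not searched. Shown are the 250 bases before the start of 3 genes. They are the gene with the largest rise, the only gene with a kB match among the 5 called genes searched, and the gene that fell. Capitals mark matches, on either strand, to the RBPJ core TGGGAA and to the NF-kB motif kB (GGG, any 3 bases, then TTCC).
Ccl3, chr11:83649379-83649628, minus strand: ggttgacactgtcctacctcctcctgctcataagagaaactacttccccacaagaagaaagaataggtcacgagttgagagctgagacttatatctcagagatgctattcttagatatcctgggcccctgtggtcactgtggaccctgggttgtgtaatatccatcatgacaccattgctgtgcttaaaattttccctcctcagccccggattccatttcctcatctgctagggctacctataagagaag
Ccl9, chr11:83578637-83578886, minus strand: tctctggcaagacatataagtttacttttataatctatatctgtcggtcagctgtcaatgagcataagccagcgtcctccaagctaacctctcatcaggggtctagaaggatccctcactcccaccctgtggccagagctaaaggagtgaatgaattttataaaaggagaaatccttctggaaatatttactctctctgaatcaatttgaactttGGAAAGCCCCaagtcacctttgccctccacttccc
Cx3cr1, chr9:120068297-120068546, minus strand: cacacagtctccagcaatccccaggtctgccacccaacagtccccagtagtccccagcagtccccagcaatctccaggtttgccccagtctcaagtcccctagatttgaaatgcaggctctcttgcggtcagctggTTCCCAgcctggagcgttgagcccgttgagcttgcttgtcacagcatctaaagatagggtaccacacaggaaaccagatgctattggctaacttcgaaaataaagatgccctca

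In the Cx3cr1 window the RBPJ core lies on the reverse strand at position -114, counting -1 as the base before the start. The Ccl9 window holds a kB match on the reverse strand at -35 and an AP-1 match (TGANTCA, lower case above) at -53. The Ccl3 window holds neither marked motif. It holds the PU-box of myeloid factor Spi1 (GAGGAA) on the reverse strand at -33, and the Ccr1 window holds it on the forward strand at -129. Of the 31 promoters 9 held the RBPJ core, which occurs in 21.6% of 32851 mouse promoter windows of that length. The kB motif was found in 5 of the 31 and in 4.65% of all windows. Of the genes with a kB match, Ccl9 was 1 of the 5 called genes searched. Ccr3 and Cxcl10 were 2 of 18 tested and not called, and Ccl1 and Ccl20 were 2 of 8 under 1 RPKM. AP-1 was found in 4 of the 31 and in 6.75% of all, and the PU-box in 12 and 23.3%. The interferon element ISRE (GAAA, any 2 bases, then GAAA) was found in 2 of the 31, Cxcl10 and Cxcl14, and in 2.98% of all windows. The E-box CACGTG was found in 0 of the 31 and in 6.02% of all. The short RBPJ and PU-box letters can overlap a kB match, and a match is a description of letters and not of binding.

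The 6 ligand genes that rose lie in 2 separate clusters on chromosome 11, and Ccr1 lies on chromosome 9 (coordinates in GRCm38, spanning all genes listed for a cluster). Ccl5, Ccl9, Ccl6, Ccl3 and Ccl4 lie within 138.9 kb at chr11:83525779-83664683, and 4 of the 5 rose, with a median log2 fold change of 1.50. Ccl5, which encodes the T cell-derived chemokine RANTES, is the exception at the edge of the cluster. It measured 13.9, 15.5 and 17.3 RPKM in Ctrl and 10.9, 15.7 and 10.0 RPKM in NICeCA, overlapping, with a log2 fold change of -0.35 (95% interval -0.75 to 0.06).

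Ccl2, Ccl7, Ccl11, Ccl12, Ccl8 and Ccl1 lie within 144.2 kb at chr11:82035577-82179812, and the 5 tested genes had a median log2 fold change of 1.61 with 2 called. Ccl12, a rodent monocyte chemoattractant, measured 4.97, 21.4 and 31.0 RPKM in Ctrl and 53.1, 39.5 and 54.9 RPKM in NICeCA. These groups did not overlap, but the spread within Ctrl was wide and the log2 fold change of 1.61 ± 0.54 (SE) was not called (adjusted p = 0.080). Ccl8, a monocyte and T cell attractant, was abundant and overlapping, at 170.1, 174 and 345 RPKM in Ctrl and 510.0, 249 and 187 RPKM in NICeCA. Its log2 fold change was 0.41 ± 0.40 (SE), and -0.0055 without NICeCA replicate 1. Ccl11, the eosinophil attractant eotaxin, was low at 0.621 to 1.90 RPKM in Ctrl and 1.56 to 3.20 RPKM in NICeCA (log2 fold change 0.45, adjusted p = 0.27). Ccl1 was under the filter, with 0.152 to 1.06 RPKM in Ctrl and 0.109 to 0.505 RPKM in NICeCA.

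**Figure D4:**
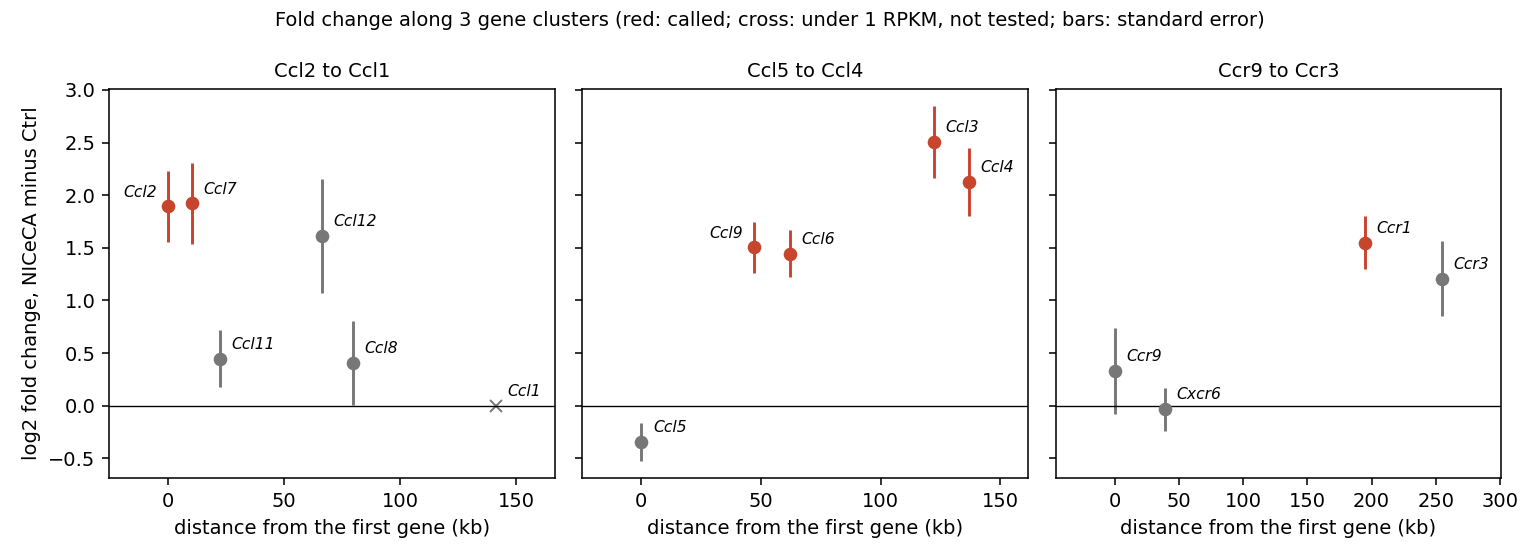
Log2 fold change (NICeCA minus Ctrl) against distance in kb from the first gene, for the Ccl2 to Ccl1 and Ccl5 to Ccl4 clusters of chromosome 11 and the Ccr9 to Ccr3 receptor cluster of chromosome 9, with standard error bars and red for called genes. The cross marks the position of Ccl1, which was not tested and has no fold change. The 4 red points of the Ccl5 to Ccl4 cluster lie at 1.44 to 2.51, with Ccl5 at -0.35 beside them.

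Of the receptors on chromosome 9, Ccr9, Cxcr6, Ccr1 and Ccr3 are neighbors, and only Ccr1 was called among these 4. Ccr3, the receptor for eotaxins, was low but separate, at 2.43, 0.522 and 2.18 RPKM in Ctrl and 5.27, 7.05 and 3.05 RPKM in NICeCA (log2 fold change 1.21 ± 0.35 SE, adjusted p = 0.058). Without NICeCA replicate 3 Ccr3 was called (1.48, adjusted p = 0.043). Ccr9, the gut-homing receptor, overlapped at 1.80 to 6.59 RPKM in Ctrl and 2.93 to 7.21 RPKM in NICeCA. Cxcr6, a receptor of tissue T cells, overlapped at 4.32 to 8.38 and 5.57 to 6.69 RPKM, with a 95% interval from -0.50 to 0.44.

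Ligands of Cxcr3, which are induced by interferon and attract T and NK cells, were not called. Cxcl9 measured 55.3, 41.5 and 75.4 RPKM in Ctrl and 47.0, 72.8 and 31.6 RPKM in NICeCA. Cxcl10 measured 16.3, 21.4 and 41.5 RPKM in Ctrl and 35.5, 51.2 and 45.3 RPKM in NICeCA. Cxcl11 ranged most, at 0.591, 3.27 and 8.10 RPKM in Ctrl and 0.991, 14.8 and 8.29 RPKM in NICeCA. The groups overlapped in each of these 3 ligands, which lie within 42.0 kb on chromosome 5. Their log2 fold changes were -0.22 for Cxcl9, 0.81 for Cxcl10 (adjusted p = 0.11) and 0.75 for Cxcl11, with a 95% interval for Cxcl11 from -1.17 to 2.66. Cxcl10 and Cxcl11 overlap Art3, a gene of the opposite strand. Cxcr3 itself measured 3.54 to 9.84 RPKM in Ctrl and 6.13 to 6.96 RPKM in NICeCA, with a 95% interval from -0.57 to 0.72.

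Among the other CXC ligands, Cxcl12 attracts stem cells and lymphocytes and is made by stroma and endothelium. It measured 3.48, 3.84 and 4.53 RPKM in Ctrl and 5.23, 6.33 and 9.46 RPKM in NICeCA. The groups did not overlap and the log2 fold change of 0.67 ± 0.20 (SE) was not called (adjusted p = 0.060), although it was with trimmed mean scaling and with quantile normalization. Cxcr7, also named Ackr3, takes up Cxcl12 without G protein signaling. It measured 12.3, 6.41 and 7.01 RPKM in Ctrl and 14.9, 13.7 and 15.8 RPKM in NICeCA, again separate and not called (0.77 ± 0.22 SE, adjusted p = 0.053), although it was without Ctrl replicate 1 (1.03, adjusted p = 0.024). Cxcl14, a chemokine of epithelia and stroma, measured 2.47 to 3.23 RPKM in Ctrl and 3.24 to 5.03 RPKM in NICeCA (0.31, adjusted p = 0.22). Cxcl16, the transmembrane ligand of Cxcr6, measured 66.0, 51.4 and 63.7 RPKM in Ctrl and 58.6, 62.7 and 34.7 RPKM in NICeCA, with a 95% interval from -0.78 to 0.28. It overlaps Zmynd15 on the opposite strand, and Cxcr6 overlaps Fyco1.

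Of the remaining CC ligands, Ccl24, the eosinophil attractant eotaxin-2, had the second largest fold change of the list and a wide spread. It measured 2.96, 1.52 and 25.6 RPKM in Ctrl and 73.9, 19.3 and 22.3 RPKM in NICeCA. Ctrl replicate 3 lay above 2 NICeCA libraries, and the log2 fold change of 2.35 ± 0.86 (SE) was not called (adjusted p = 0.098). Ccl17 and Ccl22, the ligands of Ccr4 on regulatory and helper T cells, lie on either side of Cx3cl1 on chromosome 8. Ccl17 spanned 2.20 to 9.43 RPKM in Ctrl and 2.72 to 10.2 RPKM in NICeCA (0.20, adjusted p = 0.80), and Ccl22 spanned 0.863 to 6.46 and 3.14 to 4.31 RPKM (0.27, adjusted p = 0.69). Ccl25, the ligand of Ccr9, was low and separate, at 1.47 to 2.48 RPKM in Ctrl and 0.934 to 1.29 RPKM in NICeCA (-0.41, adjusted p = 0.13). Xcl1, lymphotactin of T and NK cells, overlapped at 1.79 to 3.78 and 1.64 to 3.21 RPKM, with a 95% interval from -0.75 to 0.42.

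Lymphocyte receptors were low and not called. Ccr7, which guides dendritic cells and T cells to lymph nodes, was the most abundant at 6.43 to 12.8 RPKM in Ctrl and 12 to 17.4 RPKM in NICeCA (0.50, adjusted p = 0.17). Ccr4 spanned 0.487 to 2.23 RPKM in Ctrl and 0.875 to 1.09 RPKM in NICeCA (-0.31, adjusted p = 0.48). Ccr8, a receptor of regulatory T cells, spanned 1.26 to 3.19 and 1.12 to 2.42 RPKM (-0.30, adjusted p = 0.45). In these 3 genes the groups overlapped. Cxcr5, the B cell follicle receptor, spanned 0.413 to 1.46 and 0.859 to 2.91 RPKM (0.49, adjusted p = 0.28). Ccr10, a receptor of skin-homing T cells, measured 1.57, 2.07 and 0.936 RPKM in Ctrl and 0.477, 0.624 and 0.794 RPKM in NICeCA, separate at only 30 to 142 reads per library (-0.61 ± 0.20 SE, adjusted p = 0.074).

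**Figure D5:**
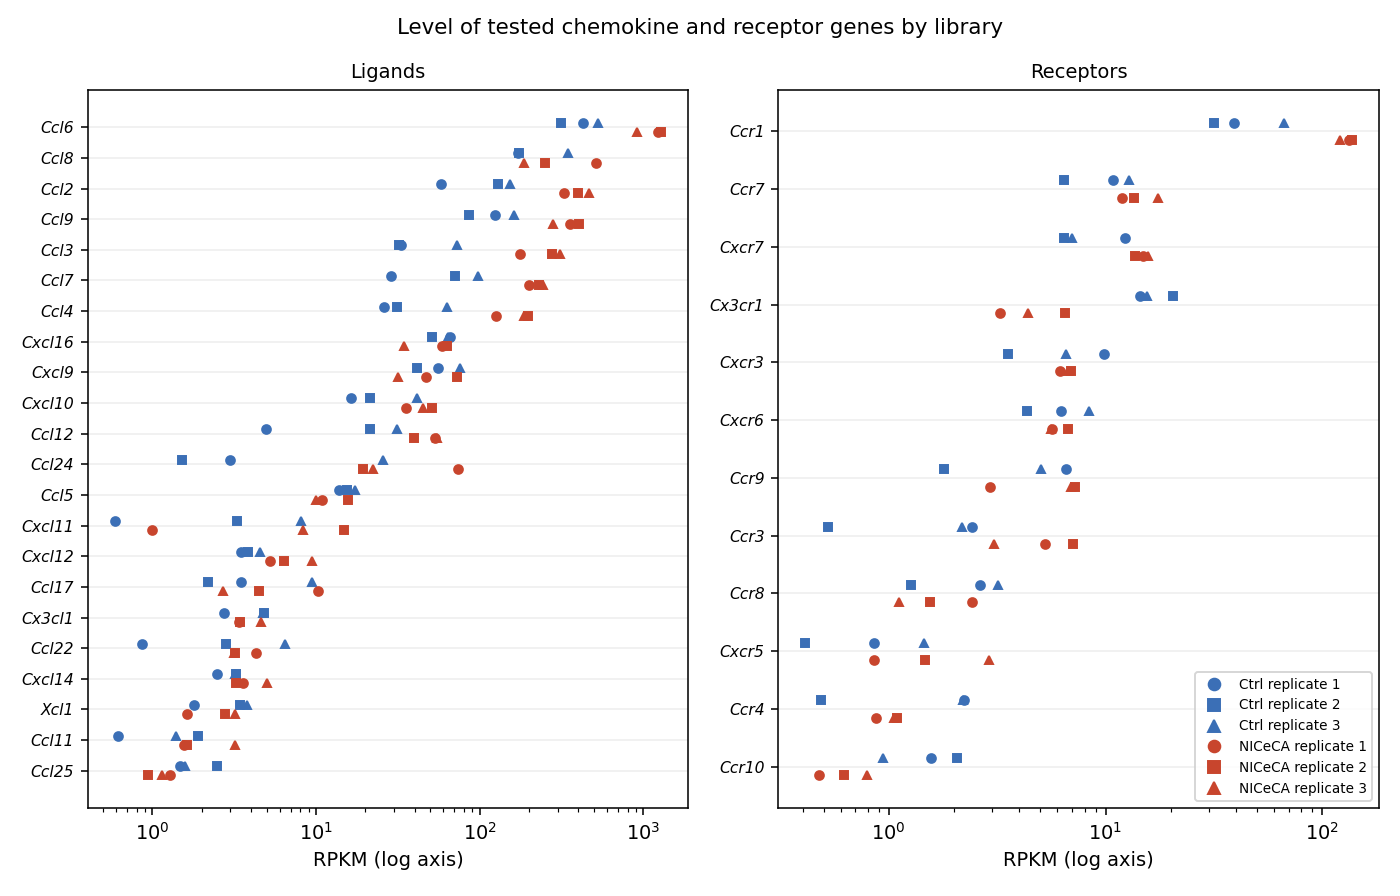
RPKM of 34 tested genes in each of the 6 libraries on a log axis, with ligands and receptors in separate panels ordered by mean level, 1 point per library, blue for Ctrl, red for NICeCA and a shape for each replicate. Levels run from under 1 RPKM in genes such as Ccr10 and Cxcr5 to 1282 RPKM for Ccl6 in NICeCA replicate 2.

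By level the CC ligands led. Of the 49 genes 7 averaged 100 RPKM or more over all libraries, and all 7 are CC ligands. The means in Ctrl were 424 ± 106 RPKM for Ccl6, 229.6 ± 99.7 for Ccl8, 124 ± 38.2 for Ccl9 and 114 ± 49.4 for Ccl2 (SD, n = 3). In that order the libraries of Ccl8 overlapped those of Ccl6 and the libraries of Ccl2 those of Ccl9, while Ccl8 and Ccl9 did not overlap. In NICeCA the means were 1141 ± 198 RPKM for Ccl6, 397 ± 67.7 for Ccl2, 347 ± 62.2 for Ccl9, 316 ± 171 for Ccl8, 254 ± 68.8 for Ccl3 and 224 ± 20.9 for Ccl7 (SD, n = 3). Among these 6 only Ccl6 did not overlap with its neighbor in the order. Summed over the 49 genes, the libraries held 1149 to 1933 RPKM in Ctrl and 3076 to 3622 RPKM in NICeCA.

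The 14 genes with a mean under 1 RPKM were not tested. Cxcr1, a neutrophil receptor for CXC ligands, measured 0.114, 0.112 and 0.639 RPKM in Ctrl and 0.634, 0.680 and 3.75 RPKM in NICeCA. Cxcl13, the B cell attractant, measured 0.353 to 0.843 RPKM in Ctrl and 0.590 to 1.93 RPKM in NICeCA. Ccr6, the receptor for Ccl20, measured 0.193 to 1.67 and 0.204 to 0.869 RPKM. These 3 overlapped between groups. Ccl27a, a skin chemokine that overlaps Il11ra1 on the opposite strand, measured 0.314 to 0.454 RPKM in Ctrl and 0.463 to 0.549 RPKM in NICeCA, without overlap. Another 4 genes had reads but reached 0.5 RPKM in no library. The remaining 5, Ccl19, Ccl21a, Ccl21b, Ccl21c and Ccl27b, had 0 reads in all 6 libraries, which allows up to 3 reads in each, counting error only. The Ccl21 genes and Ccl27b have near-identical copies, so reads from them may not have been assigned.

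Of 20 tested genes for atypical receptors and for presenting or shedding chemokines, with Cxcr7 among them, 2 were higher and 1 lower, beside 13.6% of all tested genes called in either direction, and the median log2 fold change was -0.01. Ccrl2, which binds chemerin and sits on myeloid and endothelial cells, was higher (0.93, adjusted p = 0.043), as was the heparan sulfate carrier Sdc1 (0.96, adjusted p = 0.048), and perlecan Hspg2 was lower (-0.69, adjusted p = 0.040). Of 28 genes acting downstream of chemokine receptors, the G protein subunit Gng5 (0.62, adjusted p = 0.045) and Rgs1, which shuts off G protein signaling (1.41, adjusted p = 0.040), were higher and the phospholipase Plcb3 (-0.77, adjusted p = 0.023) was lower, with a median of 0.10. Shares called in both lists lay near the background.

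Genes that induce or regulate chemokine genes held 5 calls among 23 tested, all higher. Of all tested genes 5.88% were called higher and 13.6% in either direction. The median of the 23 log2 fold changes was 0.24, and this list was chosen with earlier results of these data known. The called genes were Tnf (1.96, adjusted p = 0.011), Il1a (2.85, adjusted p = 0.012), Il1b (1.70, adjusted p = 0.020), Il6 (1.85, adjusted p = 0.021) and Nfkbia, an NF-kB inhibitor that NF-kB itself induces (1.04, adjusted p = 0.020). Il1b measured 170 to 386 RPKM in Ctrl and 718 to 930 RPKM in NICeCA without overlap.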

How the data were processed

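RNA of CD31-selected cells from LLC tumors was sequenced from 3 Ctrl and 3 NICeCA mice, and groups came from the sample titles. The deposited values are RPKM for 23473 RefSeq and 33353 FANTOM3 entries, made by the authors. The submitters' processing notes name TopHat2 and mm9, but 99.2% of the 23305 RefSeq symbols matched to GRCm38 overlap that build, whose coordinates are given. The sources used here name no counting tool and no strand setting. RPKM multiplied by length returned whole reads for 100.0% of values under 1000 reads (tolerance 0.05), giving the totals and read numbers.

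The test was limma 3.58.1 in R 4.3.3, two-sided, with a mean-variance trend, on log2(RPKM + 1) without covariates, over genes with a mean of at least 1 RPKM, adjusted by Benjamini-Hochberg over all 12320. In simulated data with 98 tested genes changed 2-fold and 98 changed 4-fold among 12288, it recovered 58.2% and 84.7% of them. It also called 13 unchanged genes there, and 1 gene in simulated data with none changed. The libraries differ by far more than sampling noise (chi-square per degree of freedom of at least 66.8 within groups), so none was counted as a repeat. Every gene of the list above 1 RPKM but 1, which is counted but not reported here, genes under it with a library at 0.5 RPKM or more, called genes of the 3 related lists and 3 Notch genes are named. The all-zero genes and those used as markers were named after their values were seen. The members and lists were chosen with earlier results of these data known. Alternatives were each library left out, a replicate block, another pseudocount, filter, scaling, all entries, no trend, and voom on the recovered reads.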

Additional observations from a re-analysis of the deposited data

Results flagged for a closer look

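Beside its RefSeq entry, Ccl4 is covered by a FANTOM3 transcript entry on the same strand. The main fit did not use that entry, and among the alternatives only the one with all entries did. That entry measured 13.5, 16.3 and 31.7 RPKM in Ctrl and 64.0, 92.7 and 95.8 RPKM in NICeCA, a difference in mean log2(RPKM + 1) of 2.06 with every NICeCA library above every Ctrl library. It stood out as a signal outside the main measurement that exceeded the control libraries. The entry overlaps Ccl4 and can hold the same reads, so it is not an independent measurement. A same-strand entry over Ccl9 overlapped between the groups instead, at 12.6, 6.79 and 19.8 RPKM in Ctrl and 23.4, 28.0 and 17.0 RPKM in NICeCA. In all, 21 FANTOM3 entries overlap 13 of the 49 genes, and 12 of them had a mean of at least 1 RPKM.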

How the results depend on the processing

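Of the 15 alternatives, those that kept all 6 libraries called 7 genes of the list higher. The exceptions were 8 with trimmed mean scaling, 6 with quantile normalization and 5 without the filter. Leaving out 1 library at a time gave 0 to 11 called higher and 1 to 2 called lower. The replicate block gave 7 higher and 1 lower, as did the fit without it, but 327 higher and 209 lower over all tested genes against 725 and 946. Same-numbered libraries deviated from their group means with correlations of 0.12, -0.34 and -0.18. With 3 libraries per group such values cannot show whether the mice were paired, and the main fit used no pairing. The methods speak of pairs of NICeCA and control mice, but the sources used here do not say which libraries form a pair. Over all genes the counts called higher and lower were 981 and 711 with trimmed mean scaling, 434 and 319 with quantile normalization, 260 and 105 without the filter, 629 and 579 at a mean of at least 5 RPKM, 683 and 1337 with voom, and 1026 and 2185 with FANTOM3 entries included. Leaving out 1 library gave 26 to 913 higher and 1 to 832 lower. Of the 8 calls Cx3cr1 held in every alternative, Ccl3 and Ccl4 were lost without NICeCA replicate 2 (adjusted p = 0.056 and 0.075 with limma), Ccl6, Ccl9 and Ccr1 without NICeCA replicate 1 or 2, and Ccl2 and Ccl7 also as given above, Ccl7 further without Ctrl replicate 2. The sign turned in 10 uncalled genes and in none of the other 25. Cx3cl1 moved to 0.079 and Cxcr6 to 0.089 with quantile normalization, and Cxcr6 to 0.026 with trimmed mean scaling. With 1 library left out, log2 fold changes ran from -0.0055 to 0.74 for Ccl8, -0.24 to 0.69 for Ccl17, -0.24 to 0.76 for Ccl22, -0.52 to 0.069 for Cxcl9, -0.40 to 0.014 for Cxcl16, -0.27 to 0.048 for Cx3cl1, -0.41 to 0.030 for Xcl1, -0.096 to 0.68 for Ccr9, -0.26 to 0.37 for Cxcr3 and -0.24 to 0.17 for Cxcr6. The cause was not tested. Groups of 3 libraries limit the precision, and genes near 1 RPKM, such as Ccr10 and Ccl25, rest on under 150 reads per library.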

Other observations

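Pf4 (Cxcl4) and Ppbp (Cxcl7), CXC chemokines stored in platelet granules, carry other symbols and so lie outside the list. Pf4 measured 116, 102 and 172 RPKM in Ctrl and 1126, 1035 and 889 RPKM in NICeCA (log2 fold change 2.98, adjusted p = 0.0069 with limma). Ppbp measured 5.83, 8.81 and 21.1 RPKM in Ctrl and 177, 173 and 279.9 RPKM in NICeCA (4.17, adjusted p = 0.0083). Both exceeded Ccl3, at 2.51, in fold change. A FANTOM3 entry on the strand opposite to Ccl6 measured 0.387, 0.175 and 0.625 RPKM in Ctrl and 1.11, 1.78 and 1.81 RPKM in NICeCA, and without a stated strand setting its reads and those of Ccl6 cannot be told apart.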
